A study of Mus musculus with 24 samples.

Results

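The 3'UTR of an mRNA is the stretch between the stop codon and the poly(A) tail, and here the genes with a very short one were described. Members were chosen on the annotation and on depth: the longest 3'UTR interval kept for a gene had to be 200 bases or less, its RefSeq accession had to start with NM_ (a protein-coding transcript), and its mean read count over the 24 libraries had to reach 20. These limits kept 1058 of 20696 genes. They were read beside 7544 NM_ genes with an interval of 201 to 3999 bases and the same mean read count, called the longer 3'UTRs below. Of 3371 NM_ genes with an interval of 200 bases or less, 2313 stayed below the read limit, and 1566 of those had no read in any library.

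The libraries came from mouse preleukemic cells transformed by retroviral Meis1 and Hoxa9, a pair of leukemia oncogenes. The groups were control cells and Tut4/7 Vav-iCre cDKO cells, in which a Cre recombinase active in blood-forming cells deletes Tut4 and Tut7. The control genotype carries the same floxed alleles without the Cre, and both genotypes carry the oncogenes. Both genotypes took up 4-thiouridine (4SU) at 2.9 µM over 12 h, were moved to 4SU-free medium and were collected after 0, 60, 180 and 540 min, with 3 replicates at each time. The replicates are described as biological triplicates of transduced fetal liver cells, so they sample these cultures and not leukemia in an animal.

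TUT4 and TUT7 add untemplated uridines to the 3' ends of RNAs, and on mRNAs with short poly(A) tails these uridines mark the transcript for decay. Much of the control of decay in an animal mRNA sits in its 3'UTR, in the form of microRNA sites and AU-rich elements, so a very short 3'UTR has little room for it. SLAM-seq follows decay by chemistry: once alkylated, 4SU pairs like a C in reverse transcription, and such T-to-C calls become rarer as labelled mRNA is lost in the chase. Replication-dependent histone mRNAs are a class of their own, since they carry no poly(A) tail and end in a conserved stem-loop that is itself uridylated when they are degraded.

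Sequences at the interval ends show both kinds of 3' end among the members. They were read from GENCODE transcripts of GRCm39 whose bases after the stop codon matched the interval's length and T count, and positions are those of the deposited mm10 intervals. Each line gives the last 30 bases of an interval, 5' to 3' on the transcribed strand, with the poly(A) signal AATAAA or ATTAAA, or the histone stem-loop, in capitals. The first 9 genes are those whose labelling or abundance is described below, and the last 3 are histones.
Rplp1 (chr9:61913283-61913323, minus strand): taagttggctAATAAAgagctgaacctgta
Rpl26 (chr11:68904494-68904534, plus strand): gcacggctttcATTAAAgactgcttaagta
Tyrobp (chr7:30417410-30417582, plus strand): tctgtccccaAATAAAagacagagcaaaaa
Elane (chr10:79888118-79888216, plus strand): ttactacAATAAAagcagcctttgttttgt
Prtn3 (chr10:79882977-79883174, plus strand): acctcAATAAAaactgagacatatttaaaa
S100a8 (chr3:90669968-90670034, plus strand): ctacagAATAAAgtcatcatatctcaggtc
Hbb-bt (chr7:103812524-103812655, minus strand): tctAATAAAtgatatttactgtcatctcaa
Cpa3 (chr3:20215616-20215804, minus strand): aaagccccAATAAAgctttaagtaaatcca
Fdps (chr3:89093588-89093642, minus strand): gagggggtctcAATAAAttattgttcaaca
H2ac23 (chr13:21810860-21810918, plus strand): aaaaaaaaaGGCTCTTTTCAGAGCCatcca
H2ac20 (chr3:96220413-96220454, minus strand): atccaaaaaGGCTCTTTTTAGAGCCaccaa
H3c3 (chr13:23745042-23745086, minus strand): ttaaaaaaaGGCTCTTTTAAGAGCCaccta

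A matching transcript was found for 934 members (88.3%) and 6273 genes with a longer 3'UTR (83.2%). Of the 884 matched members with at least 40 bases, 64.4% had AATAAA in the last 40, against 62.0% of the longer 3'UTRs. ATTAAA alone was there in 12.4% against 15.8%, and neither in 23.2% against 22.2%. Only the transcribed strand was searched, and a match of letters does not show that a site is used. The stem-loop was found in 19 members and 2 genes with a longer 3'UTR, and these 2 are the histone genes H2ax and H2bc6. A run of at least 10 A, where an oligo(dT) primer can bind inside a transcript, was in 1.71% of members and 13.6% of longer 3'UTRs. The whole matched interval was searched for it, so a longer 3'UTR offered more bases in which to find a run.

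The member intervals were 12 to 200 bases long, with a median of 119.5 against 1090 for the longer 3'UTRs, and 132 were of 50 bases or less. They held a median of 33 T positions against 314, at nearly the same T share (28.8% and 29.3%). The encoded proteins were shorter too, with a median of 337 amino acids (1024 genes) against 458 (7396 genes). Just inside the length limit, Ppia and Cct7 were among 9 members of exactly 200 bases, and just outside it Ifitm1 and Mgst2 were among 6 genes of 201. Just inside the read limit, H2ac19 and Oosp2 had a mean of 20.1 reads, and just outside it Nthl1 and Tgfbr3l had 19.9.

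The libraries held 9552906 to 13882269 filtered reads each, and the members took 16.3 to 18.4% of the reads that fell in intervals. H2ac23 had the most, with a mean of 26329 reads, and the 10 highest members took 17.5% of all member reads. As a check of the labels, Tut4 at 0 min was at 33.6, 36.6 and 42.4 CPM (the read count scaled to 1e6 filtered reads) in control and at 8.12, 13.3 and 8.23 in cDKO libraries, and Tut7 at 19.8, 16.8 and 21.9 against 7.60, 8.42 and 8.91. Both remained detectable in the cDKO libraries. All 8 myeloid progenitor markers were present in both genotypes, summing to 1005 to 1344 CPM in control and 765 to 1270 in cDKO, while B cell markers summed to at most 0.390 CPM. Within the myeloid sum Ptprc was lower in cDKO (108 to 145 against 48.3 to 100.2 CPM), as was Mpo (213 to 347 against 0.357 to 99.5). Csf2rb was higher (129 to 183 against 227 to 470 CPM), and Kit, Myb, Spi1, Cebpa and Cd33 overlapped between genotypes. Replicate 3 of cDKO had the lowest T-to-C rate of its genotype at every chase time.

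The short intervals changed what a read could report. A read on a member covered 15.4 to 16.1 T positions in a library, against 21.2 to 22.1 on a longer 3'UTR, and was lower in 6 of 6 libraries at 0 min. Within the members it rose with length, from a median of 9.60 T positions per read at 50 bases or less to 20.1 at 151 to 200 bases. Multimapped reads, which fit more than 1 place in the genome, made up 19.0 to 22.2% of member reads and 7.16 to 8.14% of reads on longer 3'UTRs. Among the members 121 (11.4%) had over 10% such reads, and 73 had over 50%. Of the longer 3'UTRs, 504 (6.68%) had over 10%.

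Labelled member mRNA was lost slowly. Rates here are summed conversions over summed covered T positions, so a deeply read gene weighs more. In control libraries at 0 min, 1.40, 1.44 and 1.39% of covered T positions in the members were read as C, and at 540 min 0.570, 0.595 and 0.552% were. The mean thus fell from 1.41% ± 0.0225 to 0.573% ± 0.0216 (SD, n = 3), and 40.5% of the start was left. In the longer 3'UTRs it fell from 1.67% ± 0.0275 to 0.283% ± 0.0124, with 17.0% left. The members began below the longer 3'UTRs and ended above them: the log2 ratio of the rates, short over longer, had a mean of -0.22 ± 0.04 (SD, n = 6 libraries) at 0 min and 0.92 ± 0.11 at 540 min. It was below 0 in 6 of 6 libraries at 0 and 60 min and above 0 in 6 of 6 at 180 and 540 min.

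In cDKO libraries the same members were read as C at 0.699, 0.729 and 0.492% of T positions at 0 min and at 0.319, 0.342 and 0.259% at 540 min. Every cDKO library lay below every control library of its time. The mean fell from 0.640% ± 0.129 to 0.306% ± 0.0427, with 47.9% of the start left, against 23.3% for the longer 3'UTRs. Both length classes thus started the chase with less label in cDKO. Gene by gene, edgeR's quasi-likelihood test on conversion counts called 731 of 895 members tested lower in cDKO at 0 min, with a median log2 difference of -1.16 in rate; 84.2% of all genes tested were called lower, with a median of -1.14.

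**Figure D1:**
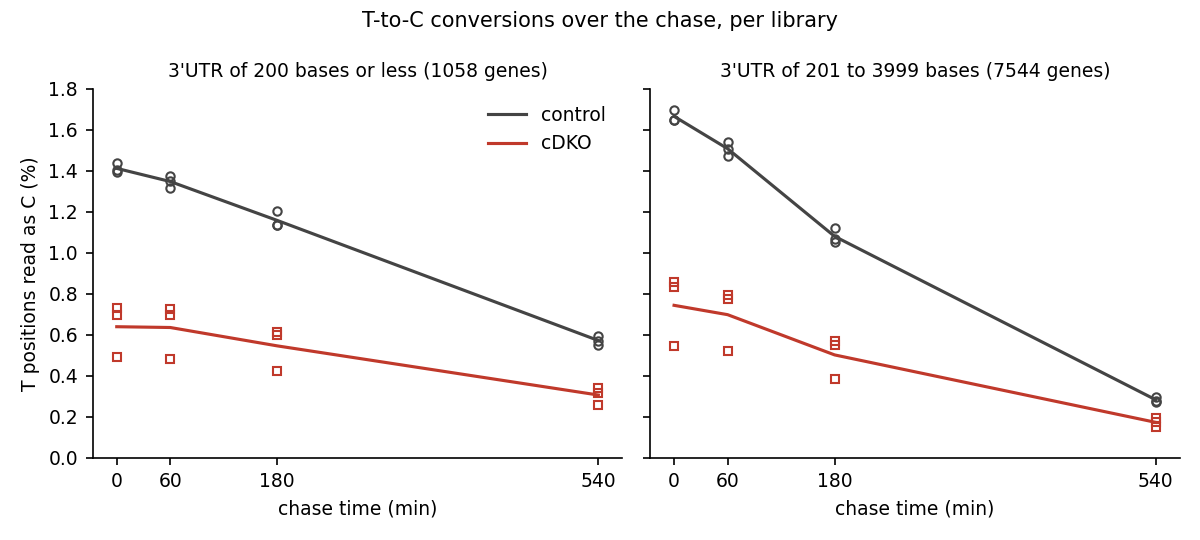
T positions read as C (%) against chase time (min) for genes with a 3'UTR of 200 bases or less (left) and of 201 to 3999 bases (right); open symbols are libraries, 3 per genotype and time, and lines join genotype means. The control mean fell to 40.5% of its start in the short class and to 17.0% in the longer class, and the cDKO means to 47.9% and 23.3%.

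Half-lives were fitted per gene as a single exponential through rates divided by the genotype's mean at 0 min. A half-life in both genotypes could be fitted for 414 members (39.1%) and 2902 genes with a longer 3'UTR (38.5%), and the rest did not meet the limits on coverage and on spread at 0 min. Control members had a median half-life of 367 min and cDKO members one of 453 min, and 289 of 414 members (69.8%) had the longer value in cDKO. By replicate, the member medians stood at 362, 398 and 353 min in control, against 475, 507 and 409 min in cDKO, so the genotypes did not overlap. Without the 540 min libraries the member medians were 732 and 882 min. The longer 3'UTRs had medians of 218 and 243 min, with 68.7% longer in cDKO.

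The shift between genotypes had much the same size in both classes. The median log2 ratio of cDKO over control half-life was 0.24 in the members and 0.19 in the longer 3'UTRs. The difference between these medians was 0.05, and it was 0.08, 0.05 and 0.06 in the replicates taken alone. It did not keep its sign: a straight line through log rates, in place of the exponential, gave -0.02. Subtracting a background rate of 0.001 from every library brought the member ratio from 0.24 to 0.13. No test was run on these medians, since members are not replicates of a condition.

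In control, median half-life went down as the 3'UTR grew, within the members and beyond them. Control medians were 1013 min at 50 bases or less (37 genes), 424 min at 51 to 100 (110 genes), 348 min at 101 to 150 (139 genes) and 325 min at 151 to 200 (128 genes). Past the limit they went on down, from 279.5 min at 201 to 300 bases to 162 min at 2001 to 3999. The cDKO medians were 1186, 528, 395 and 399.7 min in the 4 member bins, so the last pair did not go down. Ribosomal protein genes made up much of the shortest bin: without them its median was 494 min (19 genes), and that of the 51 to 100 bin 380.1 min (101 genes). The fall with length was thus smaller without them and still present. Over all 4 bins of members, leaving out the ribosomal proteins gave 348 and 409 min (383 genes, control and cDKO). Leaving out members with over 10% multimapped reads gave 343 and 410.2 min (352 genes). The T positions covered per read moved with length as well, and their part in these half-lives was not tested.

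**Figure D2:**
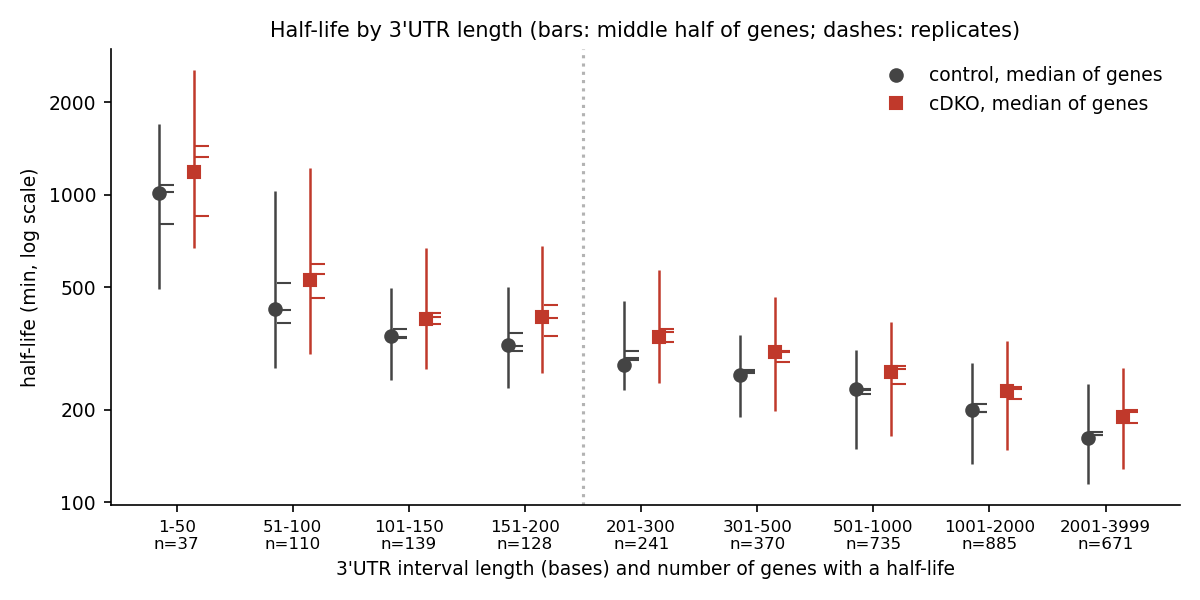
Half-life (min, log scale) by 3'UTR length (bases) in control and cDKO cells; symbols are medians over genes, bars span the first to the third quartile, dashes are medians of single replicates, and the dotted line is the 200 base limit. Control medians go down from 1013 min at 50 bases or less to 162 min at 2001 to 3999 bases, and the cDKO median is above the control median in every bin.

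Gene groups among the members spanned the range. The 55 ribosomal protein genes, whose products make up the cytosolic ribosome, kept 78.7% of their starting rate at 540 min in control and 87.0% in cDKO, and 31 of them had a median half-life of 1706 and 1773 min. These exceed the 540 min chase several times over, so they rest on a small fall. Over the 55 genes the median share of multimapped reads was 45.6% and the median interval 48 bases. The part of either in the slow loss was not tested. Subunits of the oxidative phosphorylation complexes (54 genes) kept 55.5 and 60.3%, with medians of 691 and 744 min over 32 genes. Mitochondrial ribosomal proteins (27 genes) did not share the slow loss of their cytosolic counterparts: 21.2 and 28.8% were left, with medians of 359 and 367 min over 12 genes. Proteasome subunits (19 genes) kept 32.7 and 47.6%, with medians of 409 and 494 min over 16 genes. The 838 members in no list had medians of 315 and 383 min over 299 genes.

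Smaller lists held too few members for more than a description. Sm and Lsm proteins of the spliceosome (7 genes) had half-life medians of 530.1 min in control, 698 in cDKO (6 genes), translation factors (14 genes) of 348 and 287 min (7 genes), and RNA polymerase subunits (5 genes) of 269 and 329 min (3 genes). The translation factor medians and the median of their log2 ratios, 0.36, differ in sign. Neutrophil granule genes had medians of 673 and 1035 min and interferon response genes of 673 and 1667 min, over 3 genes each. Translation factors differed widely among themselves: Eif4a3, a helicase of the exon junction complex, went from 198 to 253 min and Eif3c, a subunit of initiation factor 3, from 669 to 2266 min. The interferon response list (5 genes) included Psmb8, an immunoproteasome subunit, at 673 and 7263 min, and Ifitm2 at 1912 and 987 min. In edgeR no decay difference was called for any of these genes. In abundance, edgeR called Lsm7 and Snrpd3 lower in cDKO at 60 min (-0.35 and -0.32 on the log2 scale) and Polr2i, a subunit of RNA polymerase II, lower at 60, 180 and 540 min (-0.44, -0.58 and -0.44). Eif3l was higher at 0 min (0.36) and Eif3g at 540 min (0.37). Ifitm2 was lower at 60, 180 and 540 min (-0.40, -0.52 and -0.37), Ifitm3 was lower at all 4 times, and Psmb10 was higher at 540 min (0.48). Timm50, the only member in mitochondrial import, was not called at any time.

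Histones as a group stood at the other end. The 27 histone members fell from 1.43% ± 0.0407 (SD, n = 3) at 0 min to 0.587% ± 0.0633 at 180 min and 0.140% ± 0.0181 at 540 min in control, where 9.76% was left. In cDKO libraries they fell from 0.710% ± 0.136 to 0.327% ± 0.0359 and 0.120% ± 0.0191, with 16.8% left. H2ac23 and H2ac24, both 99.9% multimapped, carry most of the histone reads. Only 4 histones had a half-life, and they did not share one: H2ac20, H2ac23 and H2ac24 went from 189, 129 and 140 min in control to 187, 147 and 144 min in cDKO, and H3c3 from 529 to 1159 min. Of 20 histones with a matched transcript, 19 had the stem-loop and none had AATAAA or ATTAAA in the last 40 bases.

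**Figure D3:**
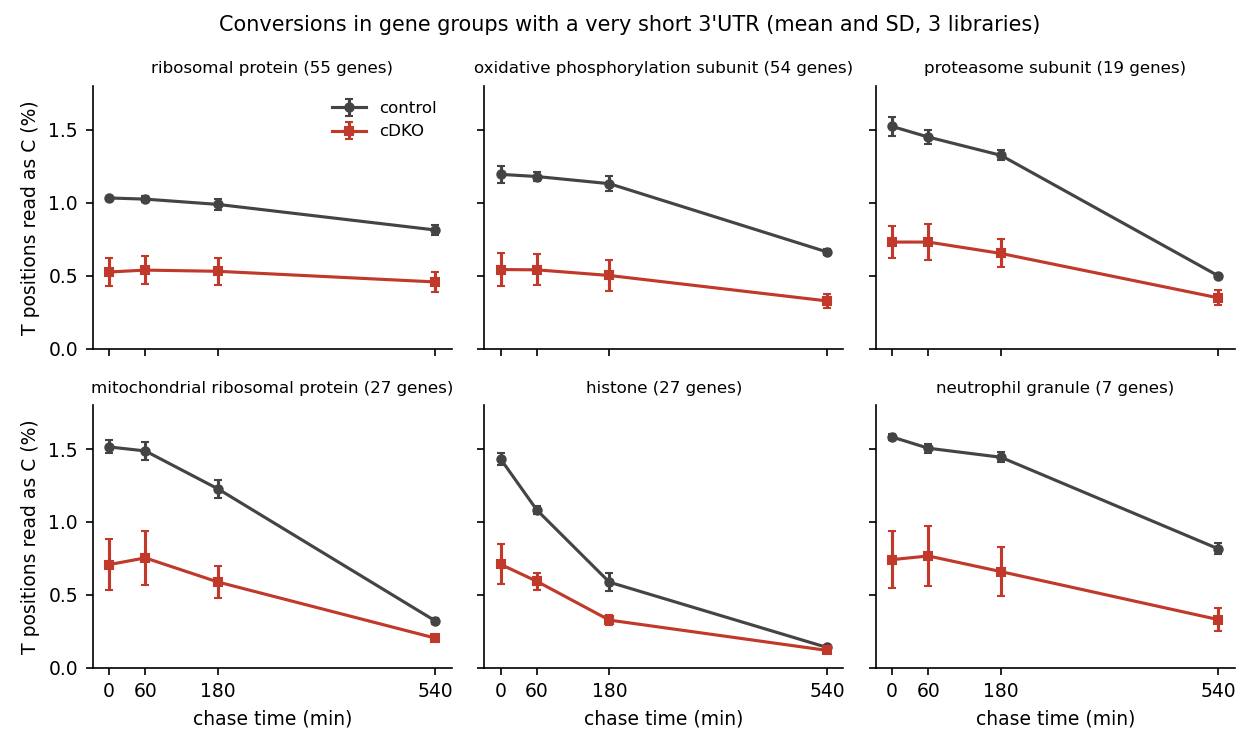
T positions read as C (%) against chase time (min) in 6 gene groups of members; symbols are means and bars SDs over 3 libraries. In control, ribosomal protein genes kept 78.7% of the starting rate at 540 min and histones 9.76%.

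Single genes marked both ends of the range. The shortest control half-lives among members covered at 1000 or more T positions in every library were those of Srfbp1 (80.2 min), Ppan (86.8 min), Ndc80 (89.4 min), Ints5 (94.0 min) and Phrf1 (94.5 min). Ppan acts in ribosome biogenesis, Ndc80 in the kinetochore and Ints5 in the Integrator complex. The longest were Rplp1, Rpl26, Rps21, Prdx5 and Trf, all at the 10000 min bound of the fit, which 5 members reached in control and 16 in cDKO. In cDKO, Prdx5, a peroxiredoxin with only 7 T positions in its interval, fitted at 376 min, and Trf, transferrin, at 1135 min. Rplp1, a stalk protein of the large ribosomal subunit with an interval of 41 bases and 14 T positions, was read as C at 1.39, 1.29 and 1.39% in control at 0 min and at 1.43, 1.40 and 1.26% at 540 min. No fall was seen over the chase. No library without 4SU was among the 24, so the rate such a gene would show unlabelled was not measured.

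The main fit called no member for a different decay rate, and a few passed in other fits. In edgeR, an interaction of genotype with hours of chase was called for 0 of 972 members, and 103 had an unadjusted p under 0.05; over all 9050 genes it called 0.133% slower and 0% faster in cDKO. DESeq2 called 8 members, and a fit with a block for each genotype and replicate number together called 4. Of these fits, only the block allows for same-numbered libraries of a genotype deviating together over time. The smallest p belonged to Cdc20, the activator of the anaphase-promoting complex. Its rates were 2.34, 2.40 and 2.27% in control and 1.28, 1.34 and 0.873% in cDKO at 0 min, and 0.304, 0.326 and 0.291% and 0.349, 0.304 and 0.286% at 540 min. The genotypes were apart at the start and overlapped at the end. The interaction was 0.12 ± 0.03 log2 units per hour (SE, edgeR adjusted p = 0.077) and passed with the block (adjusted p = 0.0116) and with DESeq2 (0.0177). The Cdc20 interval overlaps that of Elovl1 on the other strand.

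Proteasome genes were next to it. Psma7, a subunit of the 20S core, was read as C at 1.24, 1.49 and 1.197% in control and 0.503, 0.580 and 0.465% in cDKO at 0 min, and at 0.284, 0.396 and 0.402% and 0.312, 0.318 and 0.293% at 540 min. The fitted half-life went from 397 min (control) to 873 min (cDKO; edgeR adjusted p = 0.0985 for the interaction, 0.0423 with the block). Psmd6, a subunit of the 19S regulator, went from 279 to 334 min (adjusted p = 0.0806 in edgeR). DESeq2 called Psmd6 (adjusted p = 0.019), and without the 540 min libraries its interaction was -0.01 in place of 0.22 log2 units per hour. Nt5c, a nucleotidase, was at adjusted p = 0.077 in edgeR and passed with the block (0.0363) and with DESeq2 (0.0188). The histone H2ac22 completed the 5 smallest p on the slower side, at adjusted p = 0.109. On the faster side the 5 were Ccdc181, Mthfsl, Znhit2, Mettl4 and Sharpin, with edgeR adjusted p from 0.118 to 0.266, and the block called none of these 5.

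Labelling relative to the library picked out members whose rate fell less over the chase. Dividing each gene's rate by the rate of its whole library removes the lower overall labelling of cDKO, and on that scale edgeR called 15 of 895 members higher in cDKO at 0 min. Over all genes tested, 0.289% were called higher and 0.0347% lower. Among the 15 were Tyrobp, Rplp1, Rpl26, Rps27rt, Rpl8, S100a11, Coro1a, Rps21, Psmc1, Dpm3, Prtn3, Frg1, Elane and Rps29. Rps27rt and Rps29 had 61.1 and 99.8% multimapped reads, so their reads cannot be assigned to a single gene. Rplp1, Rpl26, Rpl8, Rps21 and Rps29 belong to the ribosomal protein list.

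The called members were among those that kept more of their starting rate. Of the 137 members that kept over 60% of the control rate at 540 min, 12 were called, and of the 103 that kept 40 to 60%, 3 were; among 187 members at 20 to 40% and 468 at 20% or less, 0 were called. The control libraries of 0 min enter both quantities. Tyrobp, a signalling adaptor of myeloid cells, was the most extreme. It was read as C at 3.39, 3.44 and 3.498% in control and 3.65, 3.40 and 3.40% in cDKO at 0 min, and at 2.80, 2.95 and 2.96% and 2.78, 3.09 and 3.28% at 540 min. The genotypes overlapped at both times, while in the members as a whole the cDKO mean was 0.640% against 1.41% in control. Relative to its library Tyrobp was 1.18 ± 0.10 log2 units higher in cDKO (SE, edgeR adjusted p = 7.68e-11).

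Of 49 ribosomal protein genes tested, 6 were called higher on this relative scale, and the median over the 49 was 0.00. Rpl26, a protein of the large subunit and one of the 6, was read as C at 1.87, 2.08 and 1.97% in control and 1.505, 1.57 and 1.205% in cDKO at 0 min, and at 1.99, 1.92 and 1.95% and 1.36, 1.60 and 1.40% at 540 min. The genotypes did not overlap, and neither fell. Its relative labelling was 0.70 ± 0.08 log2 units higher in cDKO (SE, edgeR adjusted p = 2.38e-07), and that of Rplp1 0.61 ± 0.06 (adjusted p = 5.66e-09). Psmc1, Dpm3, Frg1 and Rps29 lost their call when 1 replicate was left out, and 8 members were called without control replicate 1 and 9 without control replicate 3. What share of these rates would be present without 4SU was not tested.

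**Figure D4:**
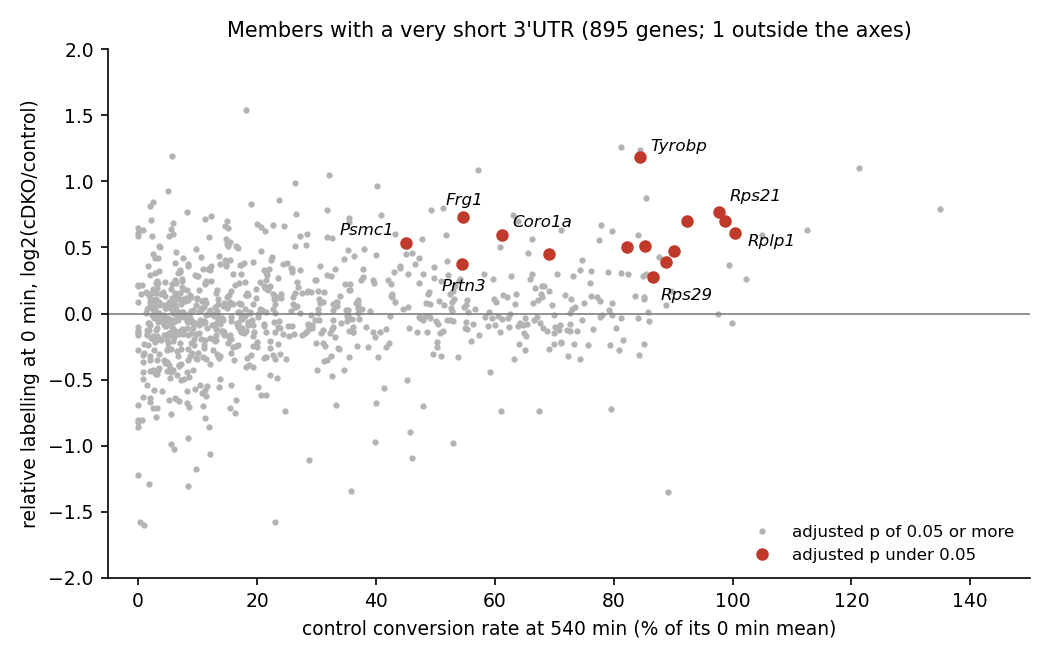
Relative labelling at 0 min (log2 of cDKO over control, each rate divided by its library's) against the control rate at 540 min as a percentage of its 0 min mean, for 895 members; red points have an adjusted p under 0.05 and some are named. The 15 red points all lie above 0 and all keep over 40% of the control rate, and 1 gene lies outside the axes.

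Member abundance differed between genotypes about as often as that of other genes at the start of the chase. At 0 min edgeR's quasi-likelihood test on read counts called 48 of 1057 members higher and 76 lower in cDKO, against 6.69% higher and 6.61% lower of all genes tested. At 60 min 59 were higher and 133 lower of 1058 (background 9.75 and 10.3%), at 180 min 65 and 131 of 1057 (8.81 and 10%), and at 540 min 109 and 98 of 1058 (9.16 and 9.97%). Called lower members outnumbered higher ones at 0, 60 and 180 min and not at 540 min. The median log2 difference over members was 0.00, -0.05, -0.05 and 0.03. In bulk samples like these, fewer cells of a type and less RNA per cell cannot be told apart. A direct test of whether the genotype difference changed between 0 and 540 min called 0 of 1058 members in edgeR. Of these members 36 had an unadjusted p under 0.05, and no other tool was run on it. The fit had no term for same-numbered cDKO libraries deviating together over time, so it cannot show that no difference changed.

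Chromosome 3 held many of the lower members. Of its 58 members, 27, 30, 33 and 31 were lower in cDKO at the 4 times, with medians between -0.52 and -0.39, and its other genes were lower at 37.0 to 52.8%. Elsewhere 49, 103, 98 and 67 members were lower and 43, 54, 60 and 105 higher. Over all 4 times 28 members were higher and 51 lower each time, against 3.89% and 4.46% of 9727 genes. Among the 28, Abcb4, Akr1c18, C2cd4b, Cpa3, Csta2, Cstdc4, Glyat, Hbb-bt, Itga2b, Lce6a and Zfpm1 reached the read limit in cDKO alone. Among the 51, Apoc2, Gm44805, Hspb11, Mocos, S100a8 and Wfdc21 reached it in control alone. Such genes are members through the genotype in which they are high, so the comparison with all genes is not like for like. Apoc2 and Gm44805 had the same mean reads, 65.0 in control and 11.6 in cDKO. Of the 51, 22 lie on chromosome 3. The copy number of chromosome 3 in these cells was not measured here. Genes on it are named as such below.

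The largest rises were in genes close to absent from control cells. All 8 described here reached a mean of 20 reads in the cDKO libraries and not in the control libraries, so they are members through the genotype in which they are high, and their values are a description. Of the 1058 members, 1018 reached that mean in both genotypes, 22 in cDKO alone and 18 in control alone; without the last 40, 37 members were higher and 66 lower at 0 min. Cpa3, a carboxypeptidase of mast cells on chromosome 3, had 0 reads in all 12 control libraries and 25.9, 25.5 and 31.9 CPM in cDKO at 0 min. It was at least 321-fold higher in cDKO at 0 min, against a floor of 3 reads over the control group. Hbb-bt, an adult beta-globin, was at 0, 0.274 and 0.746 CPM in control and 593, 727 and 875 in cDKO at 0 min, and at 0, 0.223 and 0.216 against 662, 736 and 1039.8 at 540 min. The genotypes were far apart at both times. Akr1c18, a steroid dehydrogenase, was at 0.764, 1.19 and 1.34 against 216, 94.8 and 402 CPM (log2 difference 7.86 ± 0.61, SE). Csta2, of the stefin family of protease inhibitors, was at 0 in control and at 7.39, 2.89 and 14.4 CPM in cDKO, at least 91.0-fold higher.

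Markers of the cell types these genes are known from moved only in part. Of the 7 erythroid markers Hbb-bt made up nearly all of the cDKO sum of 596 to 1047 CPM, against 0.187 to 1.54 in control; Hba-a2 reached at most 5.00 CPM and Alas2 was at 0 in all 24 libraries. Of the 5 mast cell markers, summing to 34.9 to 83.2 CPM in cDKO and 1.67 to 5.91 in control, Hdc was higher in cDKO too (6.25 to 43.3 against at most 0.837 CPM), while Fcer1a and Tpsb2 were at 0 in all 24 and Ms4a2 overlapped between genotypes. The part of such cells in these differences was not tested. Low hepatocyte and stromal sums were also higher in cDKO at the median. The 4 hepatocyte markers, nearly all of it Afp, had a median sum of 0.844 CPM in control (highest 1.79). In cDKO the median was 2.50 (1.65 to 3.78), so the genotypes overlapped. The 4 stromal markers summed to at most 0.469 CPM in control and to 0.873 to 4.59 in cDKO. Pdgfrb, at 0 in all 12 control libraries, reached 0.776 to 4.23 in cDKO. The other stromal markers did not rise: Col1a1 overlapped (median 0.236 in control, 0.149 in cDKO), and Col1a2 and Col3a1 were at or near 0 in both. The part of hepatocyte or stromal cells was not tested. The T cell markers, nearly all of it Lck, overlapped between genotypes. They summed to 3.54 to 8.89 CPM in control and to 2.60 to 6.41 in cDKO. C2cd4b, Lce6a, Abcb4 and Cstdc4 completed the 8 largest rises, at 7.93, 5.69, 5.12 and 5.11 on the log2 scale of the fit at 0 min. Single libraries set these sizes: without control replicate 3, C2cd4b was at 11.27, Hbb-bt at 12.37 in place of 11.06, Lce6a at 6.77, Abcb4 at 6.19 and Cstdc4 at 4.45. Without cDKO replicate 3, C2cd4b was at 7.18, Akr1c18 at 7.23, Abcb4 at 4.19 and Cstdc4 at 4.32, and without control replicate 1 Cstdc4 was at 5.77. Abcb4, a phospholipid transporter, lost its call without control replicate 1 or 2.

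Most neutrophil granule genes were lower in cDKO. Of the 7 members in that list, 5 were lower and 1 higher in cDKO at 0 min, with a median log2 difference of -2.26. At 60 and 180 min 6 were lower and 1 higher, and at 540 min 5 and 1. Over all genes tested, 6.61, 10.3, 10 and 9.97% were lower at 0, 60, 180 and 540 min, and 6.69, 9.75, 8.81 and 9.16% higher. Elane, neutrophil elastase, was at 775, 754 and 660.2 CPM in control and 77.0, 12.0 and 6.78 in cDKO at 0 min. The cDKO libraries differed among themselves by more than the control libraries did, and all lay below them (log2 difference -4.41 ± 0.74, SE, edgeR adjusted p = 0.00505; -6.08 without cDKO replicate 1). Prtn3, proteinase 3, was at 1475, 1467 and 1426 against 411, 267 and 147 CPM (-2.26 ± 0.29, adjusted p = 0.00133). Ctsg, cathepsin G, was at 1539, 1575 and 1601 against 821, 583 and 662 CPM (-1.04 ± 0.11, adjusted p = 0.000399).

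The remaining members of the list were less uniform. Mpo, myeloperoxidase, ranged from 213 to 347 CPM over the control libraries and from 0.357 to 99.5 over the cDKO libraries, and was called at 60 and 180 min only (adjusted p = 0.105 at 0 min in edgeR). Ms4a3, a membrane protein of granulocyte and monocyte progenitors, was at 854, 880.0 and 912 against 572, 507 and 450.2 CPM (-0.64 ± 0.10, adjusted p = 0.00293). Cebpe, a transcription factor of late granulocyte maturation, was the exception, at 2.03 on the log2 scale of the fit at 0 min (adjusted p = 0.00467). S100a8, a calcium-binding protein of neutrophils on chromosome 3, was at 12.5, 12.1 and 9.55 CPM in control and had 2 reads in all in cDKO at 0 min. S100a8, like Wfdc21 and Mocos below, reached a mean of 20 reads in control alone. The count ratio of control over cDKO was 184 (95% interval 50.6 to 1524, counting error only). Elane and Prtn3 labelling also stood among the 15 genes above, on far fewer reads in cDKO.

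Other large falls were spread over function. Wfdc21 was at 8.69, 9.42 and 5.89 CPM in control, with 3 reads in cDKO (count ratio 85.6, interval 29.0 to 418). Hk3, a hexokinase of myeloid cells, was at 71.9, 84.8 and 78.7 against 1.25, 2.34 and 0 CPM (log2 difference -5.79 ± 0.52, SE, edgeR adjusted p = 0.000197; -6.87 without cDKO replicate 2), and its interval overlaps that of Unc5a on the other strand. Cdk5rap1, which modifies mitochondrial tRNAs, was at 21.0, 19.2 and 19.5 against 4.27, 4.29 and 3.39 CPM (-2.16 ± 0.18, adjusted p = 0.000168). Ifitm3, an interferon-induced membrane protein, was at 77.8, 78.9 and 75.6 against 11.6, 1.09 and 15.8 CPM (-2.92 ± 0.59, adjusted p = 0.0111). Ifitm3 was at -3.57 without cDKO replicate 3 and lost its call without any 1 of the control replicates, as did Mocos (-2.45) without control replicate 1 or 2.

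**Figure D5:**
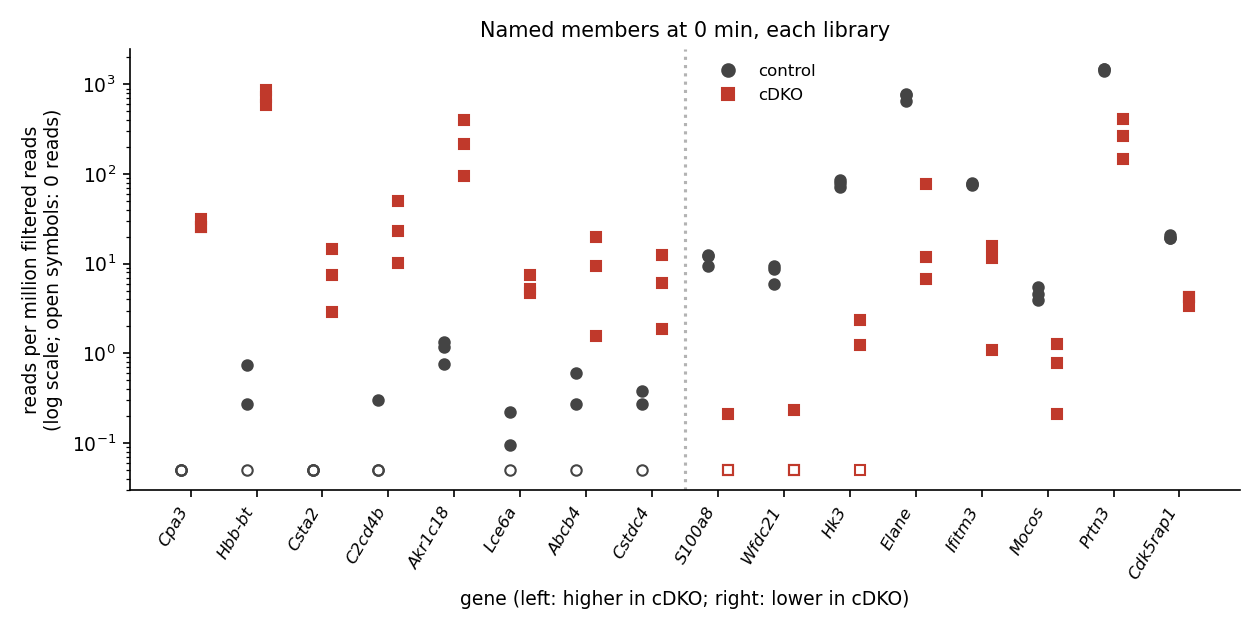
Read counts in CPM (log scale) at 0 min in each of the 6 libraries for the 8 members with the largest rises (left of the dotted line) and the 8 with the largest falls (right); open symbols mark libraries with 0 reads. Control and cDKO libraries do not overlap for any of these genes, which were chosen for that difference.

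Histone mRNAs were higher in cDKO where a difference was called. Of 27 histone members, 4, 7, 6 and 8 were higher at 0, 60, 180 and 540 min, each time with a positive median, from 0.42 to 0.63 on the log2 scale; over all genes tested, 6.69, 9.75, 8.81 and 9.16% were higher at these times. The 4 at 0 min were H2ac13, H2ac22, H2ac8 and H2bc11, at 1.30, 1.07, 0.60 and 1.12; they are named here after their values were seen. H2ac22 was at 14.7, 13.3 and 12.8 CPM in control and 23.2, 23.6 and 30.02 in cDKO at 0 min, and at 5.44, 5.35 and 6.70 against 13.8, 8.64 and 16.6 at 540 min. The genotypes did not overlap at either time, and levels were lower at 540 min in both (edgeR adjusted p = 0.00255 and 0.0111 for the genotype difference).

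H2ac23, the most read member, was called at the end of the chase and not at its start. It was at 3299.6, 3079.5 and 2992 CPM in control and 3093, 3166 and 2052 in cDKO at 0 min, and at 1440.3, 1629 and 1619 against 1904, 2198 and 1902 at 540 min. The log2 difference was -0.02 ± 0.16 at 0 min (SE, edgeR adjusted p = 0.952) and 0.38 ± 0.08 at 540 min (adjusted p = 0.00723). The direct test between these times, above and with the limit given there, did not call it. Its reads and those of H2ac24 are 99.9% multimapped, so both stand for a set of near-identical histone genes. QuantSeq libraries are primed on poly(A), and how reads on histone mRNAs arose was not tested.

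Calls in the housekeeping groups are read against 6.69% higher and 6.61% lower of all genes at 0 min. Of 55 ribosomal protein genes, 1 was higher and 3 lower in cDKO at 0 min: Rpl22l1 at 0.66, and Rpl34, Rpl35a and Rps21 at -0.43, -0.49 and -0.35 on the log2 scale, named here after their values were seen. Rpl22l1 and Rpl34 lie on chromosome 3, and Rpl22l1 and Rpl35a have 35.3 and 26.0% multimapped reads. Of 54 oxidative phosphorylation genes, Ndufc1 on chromosome 3 was called at 0 min (-0.71). Of 19 proteasome genes, Psmb4 and Psmd4 were lower (-0.46 and -0.66), both on chromosome 3. Of 27 mitochondrial ribosomal proteins, Mrpl46 and Mrpl54 were higher (0.55 and 0.41) and Mrpl47 and Mrps21 lower (-0.58 and -0.46), the last pair on chromosome 3 and Mrps21 with 99.7% multimapped reads. Psmd4 lost its call without control replicate 1, and Mrps21 without any 1 of the control replicates. At 60 min, where 10.3% of all genes were lower, 7 of 19 proteasome genes were lower and 1 higher, with Psma5, Psmb4 and Psmd4 of the 7 on chromosome 3. Of the oxidative phosphorylation genes 8 of 54 were lower and 1 higher at 60 min, and 7 and 1 at 180 min. Of the mitochondrial ribosomal proteins 6 of 27 were lower at 180 min, where 10% of all genes were, and 4 of the 6 (Mrpl24, Mrpl47, Mrps21 and Mrps28) lie on chromosome 3. At 540 min, 9.16% of all genes were higher and 9.97% lower. Of 19 proteasome genes 3 were higher and 2 lower at that time. The counts were 5 and 2 for the 54 oxidative phosphorylation genes, and 5 and 2 for the 55 ribosomal protein genes.

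Fdps was the member of cholesterol synthesis called for abundance. It encodes farnesyl diphosphate synthase of the mevalonate pathway, from an mRNA with a 3'UTR of 55 bases. It was at 44.6, 44.7 and 39.5 CPM in control and 19.2, 17.6 and 11.4 in cDKO at 0 min, and at 27.4, 35.3 and 36.7 against 19.3, 19.5 and 10.5 at 540 min. The genotypes did not overlap at either time, and the log2 difference was -1.27 ± 0.19 at 0 min (SE, edgeR adjusted p = 0.00293) and -0.98 ± 0.23 at 540 min (adjusted p = 0.0162). Fdps lies on chromosome 3, where members had a median of -0.47 at 0 min. Its rate went from 1.39, 1.42 and 1.58% to 0.262, 0.213 and 0.393% in control and from 0.668, 1.09 and 0.318% to 0.123, 0.324 and 0.454% in cDKO, where replicate 3 was higher at the end than at the start. The interaction was 0.11 ± 0.08 log2 units per hour (edgeR adjusted p = 0.473), so no difference in decay was detectable at this depth. Tm7sf2, the other member of the cholesterol synthesis list, was not called at any time (adjusted p = 0.309 at 0 min in edgeR). The median log2 difference over these 2 members was -1.05 at 0 min, so the missing call does not show an unchanged level.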

How the data were processed

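SLAM-seq libraries (24; 2 genotypes, 4 chase times, 3 replicates) were made by QuantSeq FWD 3'-end sequencing. The authors counted T-to-C conversions with SlamDunk 0.4.3 over 3'UTR intervals of mm10; mapping, multimapper and variant-masking settings are not given in the sources used here. The authors deposited counts of reads, covered T positions, conversions and multimapped reads per interval, a fraction (conversions divided by T coverage) and a CPM value scaled to filtered reads. Percentages printed here were recomputed from the counts, and CPM from read counts and the filtered reads that the deposited CPM implies. The labels give chase time as the batch, so time and batch cannot be told apart; genotypes were compared within a time.

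Of 39419 intervals, 39091 (99.2%) were paired with a gene symbol through RefSeq accessions, and the longest interval of each of 20696 genes was kept. Fits ran over all these genes, and members were read out. Abundance was tested per chase time by edgeR 4.0.16 (TMM, filterByExpr, quasi-likelihood, Benjamini-Hochberg adjustment, adjusted p under 0.05). Labelling and decay were fitted to conversion counts, offset by log T coverage, for genes with at least 100 covered T positions in each library used and 50 conversions in all. Relative labelling added the library-wide rate to the offset. Half-lives were least-squares exponentials between 1 and 10000 min, kept with at least 100 covered T positions in all libraries and, in both genotypes, an SD under 0.3 of the normalized 0 min rates (a mean above 0.8 always held). DESeq2 1.42.0 was an alternative. The main edgeR fits of abundance, decay and relative labelling, and the exponential half-life fit, were tested on simulated data. The other fits were not. The fold floor is 3 reads over a group. Where a p-value is given, it measures only the spread between these samples.

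Named genes were, among members: the 8 largest log2 changes at 0 min in each direction called at all 4 times; those called for decay and relative labelling, or the 5 smallest p in each direction; the 5 shortest and longest control half-lives; the 3 most read members of each list; Fdps; and those next to the limits. Some genes these rules name are not reported here. The members and lists were chosen with earlier results of these data known. Same-numbered control and cDKO libraries did not deviate together (correlations -0.06 to 0.09), and same-numbered cDKO libraries of different times did (0.24 to 0.74), so the block value is given for decay where it changes the call.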

Additional observations from a re-analysis of the deposited data

How the results depend on the processing

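Counts of members called for abundance ranged from 60 to 201 at 0 min (124 with all libraries), 120 to 215 at 60 min (192), 117 to 223 at 180 min (196) and 121 to 221 at 540 min (207) when 1 replicate was left out. The lower counts came without a control replicate, where 2 libraries remained in an arm, and the highest at 0 min without cDKO replicate 2. Fitting all 24 libraries together called 217 at 0 min. The replicate block gave 98, 173, 173 and 167, and members off chromosome 3 numbered 92, 157, 158 and 172. Relative labelling called 8 to 19 members with 1 replicate left out, against 15; the 8 came without control replicate 1, with 9 without control replicate 3. Decay called 8 with DESeq2 and 4 with the library-wide rate in the offset (1 slower, 3 faster), against 0. The block by genotype and replicate number together called 4. The difference between short and longer 3'UTRs in the median log2 half-life ratio, 0.054, turned to -0.021 with a log-linear fit and was 0.087 with a background of 0.001 subtracted, and 0.026 to 0.077 with 1 replicate left out; the cause was not tested. The member ratio itself, 0.24, was 0.13 with either background subtraction and stayed between 0.19 and 0.30 with 1 replicate left out and was 0.26 with the replicate block. Covered T positions per read were 14.5 for intervals of 150 bases or less, against 15.8. Without the 540 min libraries, member half-life medians were 732 min in control and 882 in cDKO. In depth, 703 members had at least 1000 covered T positions in every library; the rest have coarser rates.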
